A study of Mus musculus with 6 samples.

Results

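The small RNAs described here are 146 rows of a count table of mouse small RNAs whose names come from a catalogue of Piwi-interacting RNAs (piRNAs) and that held at least 100 tags in at least 1 of 6 libraries. They were chosen by these raw counts, from 32549 catalogued piRNAs and 61628 rows of all kinds, and make up 0.449% of the catalogued rows. The libraries came from primary peritubular myoid cells of C57BL/6J mice, the contractile cells that wrap the seminiferous tubules of the testis. Cells were cultured in medium with 10% fetal bovine serum and were either left untreated (n = 3 libraries) or exposed at 37 °C to endothelin-1 (ET1), at 50 nM and for 5 min (n = 3 libraries). ET1 is a peptide that makes smooth muscle contract, and the design asks how it alters the small RNAs of these cells. Nothing in the labels ties the libraries to separate cultures or animals, and every p-value below therefore measures only how far these libraries lie apart, a spread that may be technical.

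piRNAs guide the Piwi branch of the Argonaute proteins. They are cut without Dicer from long single-stranded transcripts, and in the testis they are made by germ cells, where they silence transposons and, during meiosis, act on other transcripts. Somatic cells make few of them, and catalogues of piRNAs built from sequencing reads also hold entries that match fragments of rRNA, tRNA or snoRNA. The rows carry a catalogue number and a count. Their sequences, lengths and genome positions were not used here, so no row is described below as a true piRNA, and counts of different rows are compared without a correction for length.

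At the threshold, mmu_piR_013382, mmu_piR_024839 and mmu_piR_031891 were just inside, each with a highest count of 101, in ET1 library 3. Just outside were mmu_piR_000118 and mmu_piR_016887, with a highest count of 99, and mmu_piR_000235, with 97. In 48 of the 146 rows all 6 libraries reached 100 tags, and in 44 a single library did, which was ET1 library 3 for 31 of them. Both groups reached 100 for 91 rows, ET1 libraries alone for 46 and untreated libraries alone for 9. ET1 library 3 thus brought in many of the rows by itself. All 146 had tags in 5 libraries; untreated library 2 held 145 of them, mmu_piR_006880 having 0 tags there, a count that allows up to 3.

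Libraries held 18127265 to 20895432 tags. Catalogued piRNAs took 159580, 280872 and 241447 of them in untreated libraries 1, 2 and 3, and 250912, 270018 and 275820 in ET1 libraries 1, 2 and 3. Known miRNAs held 30.1% to 45.6% of the tags of untreated and 22.6% to 25.5% of ET1 libraries, and rRNA fragments 3.22% to 5.63% and 7.12% to 11.02%. In neither class did the groups overlap (exact permutation p = 0.1, the smallest that 3 against 3 allows; adjusted p = 0.4 over 8 library measures). miR-143 and miR-145, markers of smooth muscle and of peritubular myoid cells, had tags for 3 of 3 arms and summed to 1.95% to 2.39% of known miRNA tags in untreated and 1.40% to 1.83% in ET1 libraries. Of 11 miRNAs of germ cells and spermatogenesis all had tags in every library, summing to 3.14% to 6.003% and 4.57% to 8.24%, with miR-470-5p alone holding 96.4% of these tags. Of 5 miRNAs of pluripotent cells and the early germ line, miR-291a-3p was at 0 throughout, and the sum was at most 0.00266% in untreated and 0.00564% in ET1 libraries. The Sertoli list (2 of 2 miR-202 arms with tags) ran from 0.0876% to 0.121% in untreated and 0.0714% to 0.206% in ET1 libraries, and the blood list (5 of 5) from 0.0265% to 0.0911% and 0.00905% to 0.0365%. The endothelial list (2 of 2 miR-126a arms) ran from 0.106% to 0.165% and 0.0131% to 0.0192%. The rRNA share was fitted as a covariate, with the values given beside the tests; the part of the other classes and of the markers in the results on piRNAs was not tested. In RNA from a whole culture, fewer cells of a type and less RNA per cell cannot be told apart.

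Catalogued piRNAs were a small class of tags in every library. They made up 0.764%, 1.48% and 1.17% of all tags in untreated libraries 1, 2 and 3 and 1.38%, 1.39% and 1.41% in ET1 libraries 1, 2 and 3. The ET1 libraries lay close together and within the untreated range, so the groups overlapped (1.397% ± 0.0162 against 1.14% ± 0.359, SD, n = 3 each; two-sided exact permutation p = 0.4, adjusted p = 0.53). The direction depended on what the tags were counted against. As a share of tags other than known miRNAs, the difference of ET1 minus untreated was −0.035 percentage points in place of 0.26.

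The tags were concentrated in very few rows. The 146 well-counted rows, chosen by these counts, held 92.4%, 93.8% and 88.4% of the catalogued piRNA tags of untreated libraries 1, 2 and 3, and 84.6%, 94.3% and 82.6% of those of ET1 libraries 1, 2 and 3. Over all libraries together, the 7 largest rows held 70.3%. In a single library 3 or 4 rows reached 50% of the tags, whereas between 29 rows (ET1 library 2) and 746 rows (ET1 library 3) were needed for 90%. The 10 largest rows of each library held 78.6%, 84.1% and 70.5% in untreated and 69.6%, 83.1% and 68.7% in ET1 libraries. Untreated library 3 thus stood with ET1 libraries 1 and 3, and ET1 library 2 with untreated libraries 1 and 2, and the groups overlapped (77.7% ± 6.87 against 73.8% ± 8.09, n = 3 each; exact permutation p = 0.5, adjusted p = 0.57). The effective number of rows, the inverse of the summed squared shares, was 9.52 ± 1.56 in untreated and 10.5 ± 1.58 in ET1 libraries (n = 3 each; exact permutation p = 0.6, adjusted p = 0.6).

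**Figure D1:**
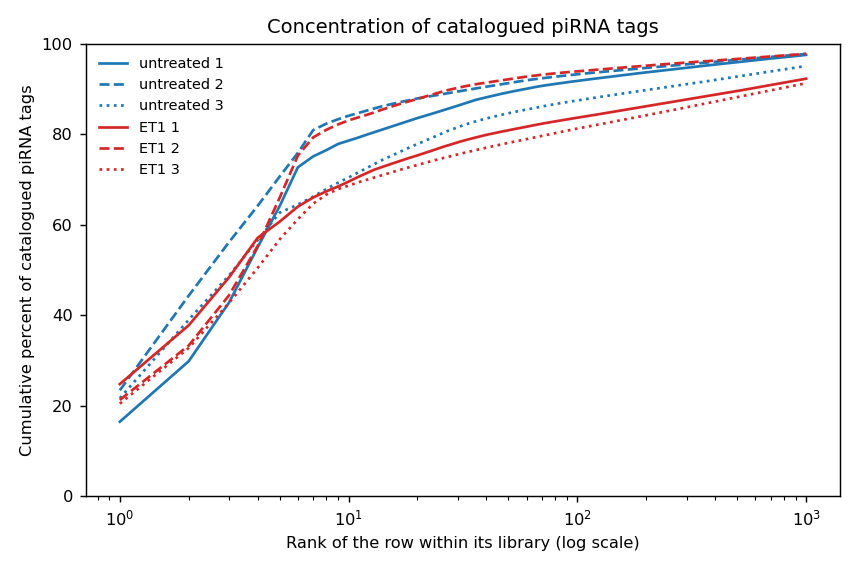
Cumulative percent of the catalogued piRNA tags of a library (vertical axis) against the rank of its rows from the largest down (horizontal axis, log scale), 1 line per library, untreated in blue and ET1 in red. All 6 lines pass 50% by the fourth row, and they separate in the tail, where ET1 libraries 1 and 3 need 555 and 746 rows to reach 90%.

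The tail of rarely counted rows also differed between libraries. Rows with at least 1 tag numbered 3568, 4486 and 6026 in untreated libraries 1, 2 and 3, and 8334, 4495 and 9342 in ET1 libraries 1, 2 and 3, at similar total depth. Untreated library 1, with the fewest rows, also had the fewest catalogued piRNA tags (159580). ET1 libraries 1 and 3 had the most rows and ET1 library 2 lay within the untreated range (4693 ± 1242 against 7390 ± 2558 rows, n = 3 each; exact permutation p = 0.2, adjusted p = 0.53). Over all libraries 14561 catalogued piRNAs had a tag and 17988 had none. Rows below the threshold of 100 held 5.65% (ET1 library 2) to 17.4% (ET1 library 3) of the catalogued piRNA tags.

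Which rows led changed from library to library, also within a group. mmu_piR_015997, the largest by its mean over libraries, had 26255, 65713 and 41861 tags in untreated libraries 1, 2 and 3, and 5052, 57435 and 27482 in ET1 libraries 1, 2 and 3. That was 16.5%, 23.4% and 17.3% of catalogued piRNA tags against 2.01%, 21.3% and 9.96%. ET1 libraries 1 and 3 lay below every untreated library, and ET1 library 2 lay within the untreated range (19.1% ± 3.78 against 11.1% ± 9.68, n = 3 each; exact permutation p = 0.3, adjusted p = 0.53). 95% Wilson intervals on such shares were at most 0.182 percentage points to either side, for counting error only, so the spread between libraries sets the precision.

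mmu_piR_000935 had another order. It had 14639, 33204 and 52281 tags in untreated libraries 1, 2 and 3, and 62159, 10901 and 17538 in ET1 libraries 1, 2 and 3. It was the largest row of untreated library 3 (21.7% of catalogued piRNA tags) and of ET1 library 1 (24.8%), and held 4.04% in ET1 library 2. High and low libraries were found in both groups.

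mmu_piR_010700 was the most uneven of the 7 largest rows across the ET1 libraries. Its counts were 20682, 58821 and 4067 in untreated libraries 1, 2 and 3, and 144, 25009 and 12267 in ET1 libraries 1, 2 and 3. After scaling of the counts to a common library size (CPM), its highest ET1 library was 224-fold above its lowest, and its highest untreated library 20.8-fold above its lowest. It was also the row whose profile was most like that of mmu_piR_015997 (Pearson r = 0.93 of log2(CPM + 1) over 6 libraries, a description of points that share depth and library), followed by mmu_piR_012524 (0.87) and mmu_piR_032867 (0.85). All 4 were lowest in ET1 library 1 by raw count and highest in untreated library 2.

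By contrast, mmu_piR_000691 was even across libraries, with 19488, 22499 and 23683 tags in untreated libraries 1, 2 and 3, and 26579, 29924 and 21269 in ET1 libraries 1, 2 and 3, or 7.71% to 12.2% of catalogued piRNA tags. mmu_piR_000585 ranged from 9458 tags in ET1 library 3 to 29395 in ET1 library 2, with 13628 to 14719 in the untreated libraries. For both, the untreated libraries lay within the ET1 range after this scaling. mmu_piR_025576 had 14164 tags in untreated library 2 and 9074 in ET1 library 1, but 473 to 1279 in the other 4 libraries, so 1 library of each group held most of its tags. mmu_piR_002435 lay between 1355 and 5597 tags, with overlapping groups.

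**Figure D2:**
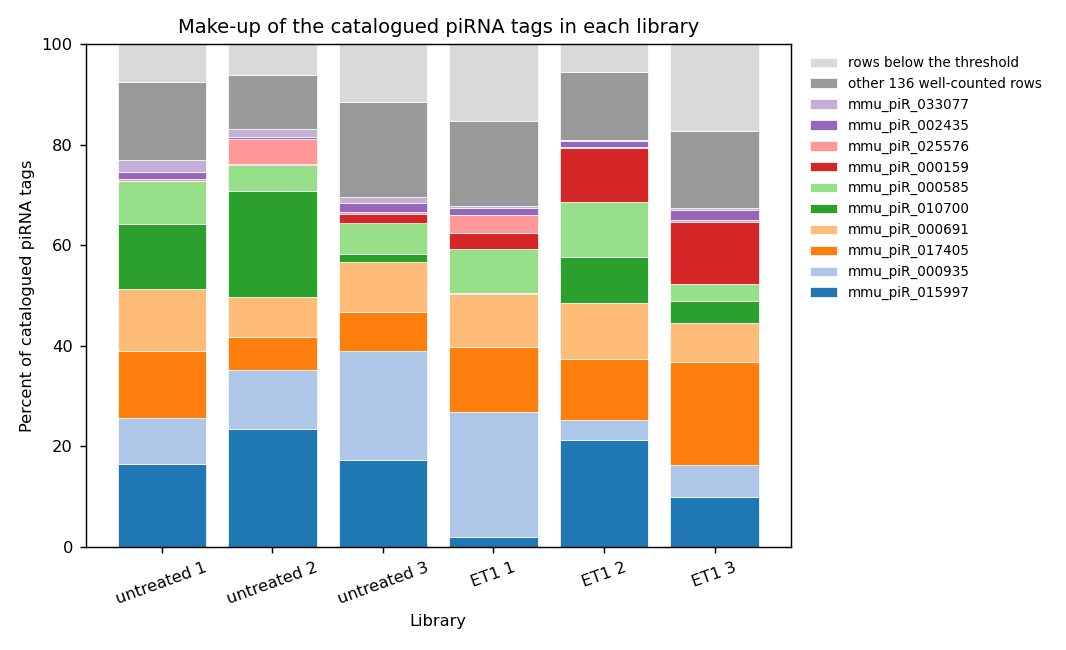
Percent of the catalogued piRNA tags of each library (stacked bars, 1 per library) held by the 10 most abundant rows, by the other 136 well-counted rows and by rows below the threshold of 100 tags. mmu_piR_010700 fills 20.9% of untreated library 2 and 0.0574% of ET1 library 1, and mmu_piR_000159 at most 1.79% of an untreated library and up to 12.3% of an ET1 library.

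The effect of ET1 was tested in edgeR over all 2579 rows that passed its expression filter and were neither known miRNAs nor totals of genome regions. Levels in CPM are tags per 1000000 tags of these rows after TMM scaling, a correction for differing library make-up. Of the 146 rows 145 were tested; mmu_piR_006880, with 167 tags in ET1 library 3 and 0 to 65 elsewhere, did not pass the filter. None of the 145 passed an adjusted p of 0.05 (0% of all tested rows did), and their lowest adjusted p was 0.28. At an unadjusted p under 0.05 there were 15, or 10.3% of those tested, against 7.72% of all tested rows. Of these 15, 7 were higher in ET1 libraries (4.83%, against 3.37% of all rows) and 8 lower (5.52%, against 4.34%). Among the 757 tested rows of other kinds that also reached 100 tags the share was 11.6%. The number of well-counted piRNAs at this level was 8 without untreated library 1, 4 without untreated library 2 and 21 without untreated library 3. It was 12, 12 and 10 without ET1 libraries 1, 2 and 3. In DESeq2 it was 24, in edgeR without a filter 23, and with the rRNA share of each library as a covariate 2. The share of all tested rows at this level is not given for these other fits, so their counts are a description. Log2 fold changes were above 0 for 82 rows and below 0 for 63, with a median of 0.10 (0.021 over all tested rows). This tally is a description, since more rows reached the threshold in ET1 libraries alone than in untreated libraries alone, and it turned in 3 fits. There were 66 above and 79 below 0 without ET1 library 3 (median −0.065), 60 and 85 with the rRNA covariate (−0.19) and 68 and 78 without a filter (−0.032). Scaling to all tags in place of TMM moved the median of all tested rows to 0.41 and that of the well-counted piRNAs to 0.51, with 108 above and 37 below 0.

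DESeq2 on the same rows passed 4 of the well-counted piRNAs at an adjusted p of 0.05. They were mmu_piR_000159 and mmu_piR_010684, higher in ET1 libraries (1.52% of all rows with an adjusted p were called higher), and mmu_piR_033077 and mmu_piR_022820, lower (2.81% were called lower). mmu_piR_010684 reached the count threshold in ET1 libraries alone and mmu_piR_022820 in untreated libraries alone. Their choice favoured the direction in which each was called, so these calls are given as a description. In edgeR without an expression filter 2 passed, mmu_piR_033077 lower and mmu_piR_038428 higher (0.176% of 19323 rows). Since the main test passed none of them, the differences below are described by their values in each library.

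By CPM, 9 rows had all ET1 libraries above all untreated libraries (6.21% of those tested, against 6.59% of all tested rows) and 9 had them all below (6.21% against 10.2%). The shares are near or below those of all rows. The choice of rows bears on these counts, since 46 reached 100 tags in ET1 libraries alone and 9 in untreated libraries alone. Counted against all tags, 18 of the 146 were higher and 4 lower without overlap (12.3% and 2.74%, against 11.7% and 5.66% of all tested rows). Against catalogued piRNA tags there were 8 and 10 (5.48% and 6.85%, against 5.93% and 8.65%). The split followed the scaling, in all tested rows as in these.

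The most abundant row of the lower set was mmu_piR_033077. It had 3856, 4048 and 2765 tags in untreated libraries 1, 2 and 3, and 959, 454 and 984 in ET1 libraries 1, 2 and 3. Every untreated library was above every ET1 library, by raw count, by CPM and as a share of catalogued piRNA tags (1.15% to 2.42% against 0.168% to 0.382%). The level was 1754 ± 616 CPM in untreated and 299 ± 78.5 CPM in ET1 libraries (n = 3 each; log2 fold change −2.55, SE 0.46; edgeR adjusted p = 0.28, DESeq2 adjusted p = 3.42e-06). With 1 library left out the log2 fold change ran from −2.80 to −2.37, and it did not pass in any of these 6 fits. It passed in edgeR without an expression filter (adjusted p = 0.0011), and stood at −1.74 (SE 1.02) with the rRNA share as a covariate.

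In 3 others of the lower set untreated library 2 was the highest. mmu_piR_031448 had 755, 1651 and 431 tags in untreated libraries 1, 2 and 3, and 393, 249 and 269 in ET1 libraries 1, 2 and 3. Its log2 fold change was −2.07 (SE 0.67; edgeR adjusted p = 0.41), or −1.26 at the nearest to 0 with 1 library left out. mmu_piR_032974 had 1047, 2709 and 1675 tags in untreated libraries and 901, 197 and 902 in ET1 libraries, with untreated library 2 again the highest and ET1 library 2 far below the rest (−1.87, SE 0.67; edgeR adjusted p = 0.51). In mmu_piR_022820 the 3 ET1 libraries were alike, at 85, 81 and 87 tags, against 128, 435 and 226 in untreated libraries (−2.00, SE 0.60; edgeR adjusted p = 0.35, DESeq2 adjusted p = 0.033). mmu_piR_022820 reached 100 tags in untreated libraries alone, so its choice favoured a lower level in ET1 libraries. mmu_piR_020211 had 213, 183 and 521 tags in untreated and 27, 183 and 113 in ET1 libraries, with untreated library 3 the highest; raw counts tied at 183 and scaled levels were apart (−1.62, SE 0.79; edgeR adjusted p = 0.75).

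mmu_piR_000159 had the highest log2 fold change of the well-counted piRNAs. Its counts were 150, 422 and 4331 in untreated libraries 1, 2 and 3, and 8319, 29053 and 33957 in ET1 libraries 1, 2 and 3. The groups did not overlap, but untreated library 3 held over 10 times the raw tags of each of the other 2 untreated libraries, and ET1 library 1 fewer than each of the other 2 ET1 libraries. The level was 656 ± 872 CPM in untreated and 9415 ± 5633 CPM in ET1 libraries (n = 3 each; log2 fold change 3.84, SE 1.23; edgeR adjusted p = 0.41, DESeq2 adjusted p = 0.011), and 3.32 to 5.92 with 1 library left out. Fragments of the small ribosomal subunit RNA made up 0.758%, 0.560% and 1.28% of all tags in untreated libraries 1, 2 and 3, and 2.02%, 5.47% and 5.21% in ET1 libraries 1, 2 and 3. The same 2 ET1 libraries were thus high in both, and untreated library 3 was the highest untreated library in both. Fragments of the large subunit RNA differed, at 0.714%, 0.471% and 0.259% of all tags in ET1 libraries 1, 2 and 3. Their untreated shares were 0.264%, 0.159% and 0.530%, highest in untreated library 3. In the remaining rRNA class with its own share, ET1 libraries 2 and 3 (4.91% and 4.51%) exceeded ET1 library 1 (4.24%). There untreated library 2 (4.03%) was above untreated library 3 (3.67%), and untreated library 1 was at 2.09%. With the rRNA share of each library as a covariate the log2 fold change was 0.0060 (SE 1.31), in a fit where rRNA share and treatment are hard to tell apart because the groups do not overlap in rRNA. Whether the row shares sequence with rRNA was not tested.

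mmu_piR_017405, next in mean level to mmu_piR_000935, was higher in the ET1 libraries by raw count and after TMM scaling. It had 21349, 18330 and 18811 tags in untreated libraries 1, 2 and 3, and 32623, 32497 and 56409 in ET1 libraries 1, 2 and 3. Its level was 9410 ± 1956 CPM against 15459 ± 4175 CPM in ET1 libraries (n = 3 each; log2 fold change 0.72, SE 0.35; edgeR adjusted p = 0.75). As a share of catalogued piRNA tags the groups overlapped, since untreated library 1 held 13.4% and ET1 library 2 12.04%.

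The other high rows were rarer. Of these, mmu_piR_010684, mmu_piR_009721 and mmu_piR_013323 reached the threshold of 100 tags in ET1 libraries alone, so that their choice favoured a higher level there and their fold changes and p-values are given as a description. mmu_piR_010684 had 35, 42 and 88 tags in untreated libraries 1, 2 and 3, and 168, 162 and 554 in ET1 libraries 1, 2 and 3 (log2 fold change 2.13, SE 0.61; edgeR adjusted p = 0.31, DESeq2 adjusted p = 0.015). In mmu_piR_009721 ET1 library 3 alone held 202 of the tags, against 24 and 38 in the other ET1 libraries and 10, 4 and 16 in untreated libraries (2.83, SE 0.94; edgeR adjusted p = 0.44; 1.53 to 3.26 with 1 library left out). mmu_piR_000536 was high and even in ET1 libraries, with 2671, 2439 and 3376 tags against 1065, 712 and 2389 (0.81, SE 0.43; edgeR adjusted p = 0.79). mmu_piR_013323 had 55, 60 and 109 tags in ET1 libraries against 29, 24 and 40 (0.98, SE 0.49; edgeR adjusted p = 0.75).

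**Figure D3:**
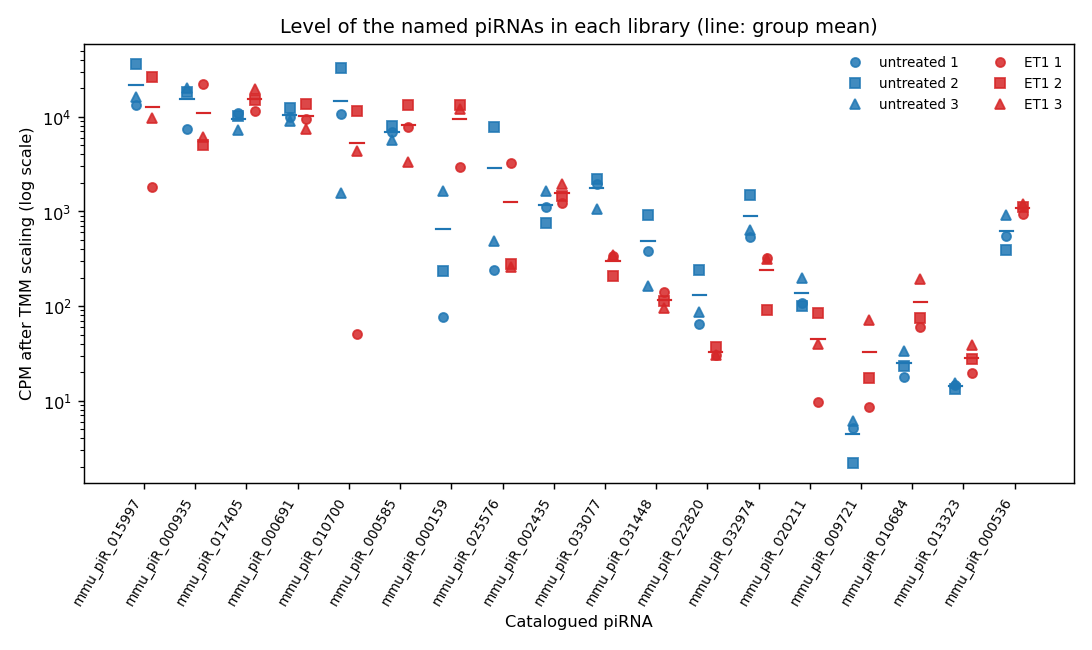
Level of 18 catalogued piRNAs in each library, in CPM after TMM scaling (vertical axis, log scale), untreated in blue and ET1 in red, with replicates 1, 2 and 3 as circles, squares and triangles and a line at each group mean. The first 10 are the most abundant, followed by those with the lowest and highest log2 fold changes among rows without overlap; mmu_piR_033077 is apart in all libraries, while mmu_piR_010700 and mmu_piR_025576 scatter within both groups.

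Among the most abundant rows, edgeR gave log2 fold changes of −0.80 (SE 0.89) for mmu_piR_015997, −0.46 (SE 0.67) for mmu_piR_000935 and −1.49 (SE 1.59) for mmu_piR_010700. With 1 library left out these ran from −1.98 to −0.22, −1.47 to −0.15 and −2.82 to −0.20, and with the rRNA covariate they were −5.43 (SE 1.52), 0.72 (SE 1.09) and −11.3 (SE 5.35). For mmu_piR_025576 it was −1.18 (SE 1.51), which turned to 1.75 without untreated library 2. mmu_piR_000691 was at −0.036 (SE 0.35) and 0.33 when scaled to all tags, mmu_piR_000585 at 0.25 (SE 0.52) and mmu_piR_002435 at 0.42 (SE 0.43). The edgeR adjusted p was 0.99 for each of these 7. The standard errors of mmu_piR_010700 and mmu_piR_025576 leave room for changes of several fold in either direction.

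Spread within a group was wide over the whole set. The median ratio of the highest to the lowest library, in CPM, was 2.44 in untreated (145 rows with over 3 tags in each library) and 2.92 in ET1 libraries (143 rows). It was above 3 in 53 and 70 rows, and above 10 in 8 and 9. The within-group SD of log2(CPM + 1) had a median of 0.82 over the tested well-counted piRNAs, 0.90 over all tested rows, 0.79 over the 757 tested rows of other kinds that also reached 100 tags and 0.87 over the 570 predicted piRNAs among them. Some rows were even within groups. mmu_piR_002962, the most even in this sense, had 827, 866 and 1576 tags in untreated and 1983, 1542 and 1977 in ET1 libraries (within-group SD 0.18), and mmu_piR_038412 125, 149 and 151 against 167, 153 and 220 (0.23). After scaling, all ET1 libraries of mmu_piR_002962 lay above its untreated libraries, so it was even within groups but not between them.

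In 14 rows a single library held over 50% of the tags, and for 8 of them it was ET1 library 3. mmu_piR_022097 was the extreme: 2229 of its 2757 tags (80.8%) were in untreated library 3, with 6 and 47 in the other untreated libraries and 405, 17 and 53 in ET1 libraries. mmu_piR_016536 had 935 tags in untreated library 2, 923 in ET1 library 2 and 534 in ET1 library 3, but 15 and 24 in untreated libraries 1 and 3 and 49 in ET1 library 1, so high and low libraries were found in both groups. mmu_piR_028975 had 1114 tags in ET1 library 2 and 55 to 237 elsewhere. These rows were chosen after their values were seen.

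Similarity between libraries over the 146 rows did not follow the treatment closely. The most alike pair was untreated library 3 and ET1 library 1 (Pearson r = 0.90 and Spearman rho = 0.85 of log2(CPM + 1) across rows, which are not independent replicates), followed by untreated libraries 1 and 2 (r = 0.88, rho = 0.85). Pearson r ran from 0.82 to 0.88 for pairs within the untreated group and from 0.78 to 0.83 within the ET1 group. For pairs between the groups it ran from 0.75 to 0.90. After scaling, ET1 library 3 was the highest library for 55 of the 146 rows, untreated library 2 for 32, ET1 library 1 for 19, untreated library 3 for 18, ET1 library 2 for 13 and untreated library 1 for 9. The choice of rows bears on this tally, since 31 rows were taken in through ET1 library 3 alone. These correlations are descriptions and carry no test.

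**Figure D4:**
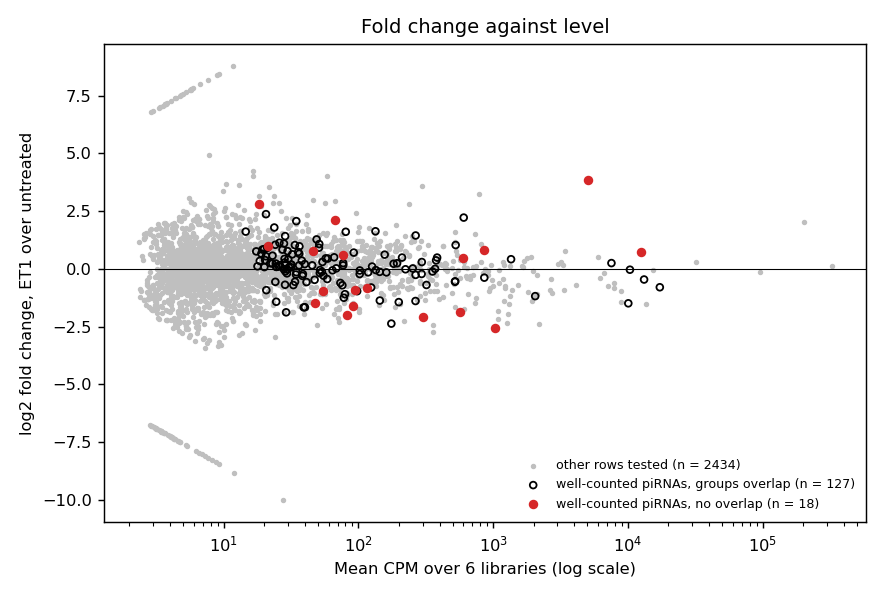
Log2 fold change of ET1 over untreated libraries (vertical axis) against mean CPM over 6 libraries (horizontal axis, log scale) for the 2579 tested rows: 145 well-counted piRNAs, 18 of them in red without overlap between groups and 127 as open circles, among 2434 other rows in grey. The well-counted piRNAs run from −2.55 to 3.84; the 71 grey points beyond 6 in either direction are rows at 0 in all libraries of a group, whose fold change depends on the prior count.

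Other kinds of small RNA in the same fit had medians on either side of that of the well-counted piRNAs. The 540 tested catalogued piRNAs below the threshold had a median log2 fold change of 0.16 (316 above and 224 below 0), and 1522 tested predicted piRNAs one of −0.033 (740 above and 782 below). Rows of rRNA were above 0 in 9 of 10 (median 0.36), those of snoRNA in 68 of 124 (median 0.028), and those of spliceosomal RNA in 1 of 5 (median −1.18). The 1 tested tRNA row was at −0.46. Rows of Y RNA, 7SK, signal recognition particle and vault RNA were above 0 in 3 of 6 (median −0.030). None of the rows in any of these lists passed the edgeR test. At an unadjusted p under 0.05 there were 10, 132, 1, 10, 2, 0 and 0 in the order given. These were 1.85%, 8.67%, 10%, 8.06%, 40%, 0% and 0% of the tested rows of each list, against 7.72% of all tested rows. In the same order DESeq2 passed 0, 82, 1, 5, 2, 0 and 0 of the rows in these lists, and 111 of all rows.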

How the data were processed

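Small RNA was sequenced from total RNA, extracted with TRNzol and prepared by a BGI protocol, per the labels' protocols. Bowtie2 and mm10 are named, per the submitters' processing notes; not given in the sources used here were the aligner's version, the piRNA catalogue, the number of mismatches and how a tag matching several rows was counted, so similar rows may share or split tags. The authors deposited raw tag counts per row, used here, and an RPM under the header TPM, whose deposited values were not used. The authors' comparison table lists no catalogued piRNA and was not used.

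Rows other than known miRNAs and the 4 totals were fitted in edgeR 4.0.16 (R 4.3.3): default expression filter, TMM, robust quasi-likelihood fit on the group alone, two-sided test, Benjamini-Hochberg adjustment over 2579 rows, threshold 0.05. The SE is the log2 fold change divided by the root of the F statistic. Alternatives used DESeq2 1.42.0 and limma-voom 3.58.1. The fitting code was tested on simulated data. Library measures were compared by two-sided exact permutation (scipy 1.17.1), adjusted over 8 measures. Over the 146 rows, libraries within a group always differed beyond counting noise (chi-square per degree of freedom 231 to 941).

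Rows named were the 10 most abundant, any that passed, the 5 highest and 5 lowest log2 fold changes without overlap, 3 rows on either side of the threshold, and the 3 most like the largest row; others were chosen after their values were seen. The set and the lists were chosen with earlier results of these data known.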

Additional observations from a re-analysis of the deposited data

How the results depend on the processing

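The count of 0 well-counted piRNAs called by edgeR held in the 6 fits that left out 1 library (range 0 to 0), with 3 other scalings, with known miRNAs in the fit, with a filter of 10 CPM in 3 libraries, in limma-voom, with the rRNA share as a covariate, and for thresholds of 50 tags (284 tested rows) or 200 tags (83 tested rows). It became 4 in DESeq2 and 2 without a filter; the cause was not tested. A replicate block also gave 0 (10 at an unadjusted p under 0.05, against 15). Same-numbered libraries of the groups did not deviate together (r = 0.092, −0.089 and 0.0095). With 3 libraries per group this cannot decide whether they were handled in pairs, and the labels do not say. The difference in the share of catalogued piRNAs, 0.26 points of all tags, was −0.035 of tags other than known miRNAs and −2.22 of tags other than known miRNAs and totals, where the denominator shrank. The rRNA share, in which the groups do not overlap, moved several named rows. It turned mmu_piR_000935 to 0.72, mmu_piR_000585 to −0.070, mmu_piR_025576 (−1.18 without it) to 1.65 and mmu_piR_002435 to −0.21. It brought mmu_piR_000159 to 0.0060, mmu_piR_009721 to 0.68, mmu_piR_010684 to 0.69, mmu_piR_013323 to 0.29 and mmu_piR_000536 to 0.22, and took mmu_piR_015997 to −5.43, mmu_piR_010700 to −11.3 and mmu_piR_020211 to −5.16. mmu_piR_000691 was at 0.084 with TMM over catalogued piRNAs alone, 0.33 with all tags and 0.15 with all rows together. With 1 library left out mmu_piR_000691 ran from −0.35 to 0.16, mmu_piR_000585 from −0.35 to 0.64 and mmu_piR_025576 from −3.42 to 1.75. Of the 146 rows, 73 took both signs over these 6 fits. The share of all tested rows that did so is not given here, so the count is not read as a trait of the well-counted piRNAs. Rows near the threshold had few tags in their lower libraries (mmu_piR_009721 had 4 in 1), where counting error adds to the spread.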
